A study of Mus musculus with 111 samples.

Results

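The genes described here code for the proteins of the cytosolic ribosome. They were taken by symbol, as every gene named Rpl or Rps with a number and an optional suffix, plus Rplp0, Rplp1, Rplp2 and Rpsa, and the rule found 89 of the 36161 genes in the table. Of these, 53 have large subunit symbols and 36 small subunit symbols. GENCODE M21 (GRCm38) lists 83 of the 89 as protein-coding genes, 5 (Rps3a2, Rps3a3, Rps12l1, Rpl6l and Rpl32l) as processed pseudogenes and 1 (Rps4l) as a transcribed processed pseudogene. A filter on low counts kept 87 of the 89 and 17186 of all genes, and Rpl32l and Rpl6l did not pass it.

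Single B6129F1 mouse embryos, 111 in number, were sequenced by SmartSeq2, which primes polyadenylated RNA with oligo dT. Each had reached the 2-cell stage in KSOM after injection as a germinal vesicle oocyte, 5 hours of arrest, 12 hours of maturation and in vitro fertilization. In the knockdown arm (55 embryos, labelled C88) the oocytes received a set of 2 siRNAs at 20 µM each against Nr5a2, an orphan nuclear receptor, with 150 ng per µl of RNA for H2B-rsEGFP. In the control arm (56 embryos, labelled NT) they received control siRNAs with 150 ng per µl of RNA for H2B-EGFP, so that the target and the marker RNA cannot be told apart. The control and knockdown arms had 24 and 16 embryos in experiment 1, 7 and 16 in experiment 2, and 25 and 23 in experiment 3. Which embryos share a mother is not labelled, so p-values measure the spread between embryos.

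Library totals ran from 1955810 to 21236157 estimated counts (median 4749787). Nr5a2 itself was lower after its knockdown, at 48.3 ± 19.8 CPM (SD, n = 55) against 109.5 ± 49.4 CPM (SD, n = 56), and its log2 difference was -1.19 ± 0.12 (SE), with adjusted p 6.25e-12 by edgeR. Every oocyte-deposited marker gene in the table had counts, from Dppa3 at a mean of 1343 CPM down to Sohlh1 at 6.16 CPM, as had 12 of 13 markers of the 2-cell burst. Markers of cumulus and granulosa cells summed to 3.66 to 82.4 CPM per embryo and those of sperm to 0 to 6.92 CPM. In control embryo 2 of experiment 2, only 0.361% of counts fell on the 89 genes, far below the rest of its group. The main results that rest on that group are given with and without this embryo. Without it the share of that group was 1.25% ± 0.15 (SD, n = 6). Knockdown embryos 8 and 5 of experiment 3 had still lower shares, 0.287% and 0.312%, and no result is given with only these left out.

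A ribosome joins a small subunit, which holds the mRNA and decodes it, to a large subunit, which forms the peptide bond. Nearly every ribosomal protein is needed in equal amount, and cells usually make their mRNAs in step. Many of these mRNAs begin with a C followed by a run of pyrimidines, the 5′ terminal oligopyrimidine (TOP) tract, through which the mTOR pathway and the protein Larp1 govern their translation. An oocyte stores such mRNAs, and the 2-cell embryo still carries part of that stock while its own genome starts to be transcribed.

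The start sites show this feature in part. RefSeq start regions (GRCm38.p6, 250 bases before to 50 after each start) were found for 64 of the 89 genes, with 76 starts in all. The windows below hold 15 bases before and 15 from the annotated start, on the gene's strand, with the longest run of pyrimidines in capitals. The first 5 have a C and at least 4 further pyrimidines at the start. The next 3 do not, and belong to the gene with the highest level (Rpl41), a paralog (Rps27l) and the P stalk scaffold (Rplp0).
Rps6: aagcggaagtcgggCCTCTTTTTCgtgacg
Rplp2: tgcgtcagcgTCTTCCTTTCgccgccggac
Rps27: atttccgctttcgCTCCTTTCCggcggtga
Rpl14: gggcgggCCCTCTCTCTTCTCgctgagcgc
Rpl15: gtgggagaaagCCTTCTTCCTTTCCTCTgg
Rpl41: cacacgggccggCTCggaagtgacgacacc
Rps27l: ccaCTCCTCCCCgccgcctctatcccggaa
Rplp0: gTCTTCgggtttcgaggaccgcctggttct
They lie at chr4:86857353-86857382 (minus strand) for Rps6, chr7:141447636-141447665 (plus) for Rplp2, chr3:90213634-90213663 (minus) for Rps27, chr9:120571502-120571531 (plus) for Rpl14, chr14:18270972-18271001 (minus) for Rpl15, chr10:128549154-128549183 (minus) for Rpl41, chr9:66946071-66946100 (plus) for Rps27l and chr5:115559452-115559481 (plus) for Rplp0. Of the 76 starts, 14 (18.4%) had a C with 4 pyrimidines after it, against 2.51% of all 32851 starts in the table. A run of at least 8 pyrimidines in the window was present in 38.2% against 12.0%. The letters CCGGAAG, on either strand, were present in 35.5% of the 300-base regions against 8.86%, and AAGATGGCG in 7.89% against 1.40%. The letters AAGGTCA, which nuclear receptors of the Nr5a family are known to bind, were present on either strand in 9.21% (7 regions) against 4.72% of all. Such matches describe letters only, and annotated starts can lie a few bases from those used in the embryo.

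The 89 genes together took 1.12% ± 0.34 (SD, n = 111) of all counts. In experiment 1 the control embryos had 1.07% ± 0.30 (SD, n = 24) and those of the knockdown arm 1.14% ± 0.45 (SD, n = 16). In experiment 2 it was 1.12% ± 0.36 (SD, n = 7) and 1.28% ± 0.28 (SD, n = 16), and in experiment 3 it was 1.13% ± 0.31 (SD, n = 25) and 1.06% ± 0.37 (SD, n = 23). The group means thus lay within 1 SD of each other, while embryos of a single group spanned several-fold, from 0.287% to 1.51% in the knockdown embryos of experiment 3. A share of counts is relative: the amount of RNA per embryo was not measured, so less ribosomal protein mRNA and more of other mRNA cannot be told apart.

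**Figure D1:**
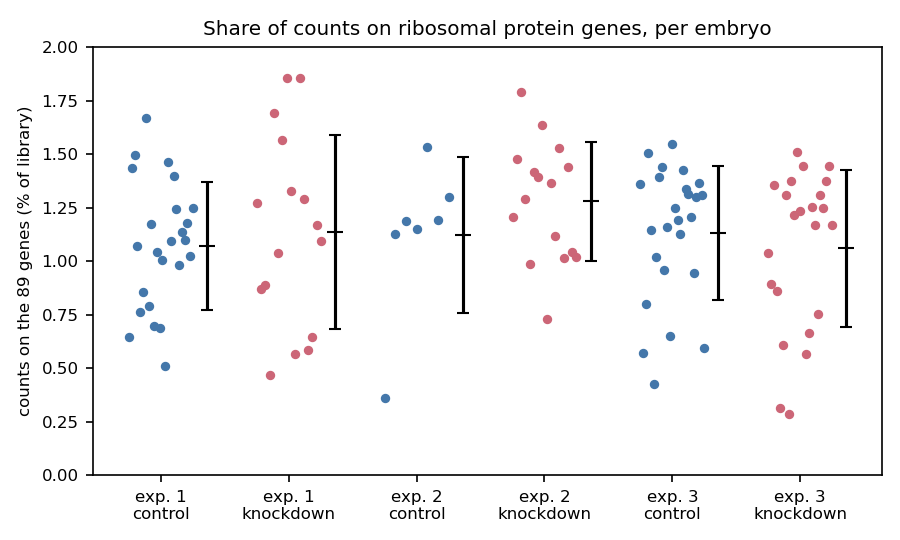
Share of each library's counts on the 89 ribosomal protein genes (y axis, percent) for each embryo (points, blue control, red knockdown) in the 6 groups of experiment and arm (x axis), with the mean and SD beside the points. Embryos of every group spread widely. Control embryo 2 of experiment 2 lies at 0.361%, and knockdown embryos 8 and 5 of experiment 3 at 0.287% and 0.312%.

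Levels of different genes were compared as CPM per kilobase of transcript, with each gene's length weighted by the counts of its transcripts. The median gene past the filter stood at 114 CPM per kilobase. Rpl41 (chr10:128548114-128549305, GRCm38, minus strand), which codes for the smallest ribosomal protein, led with 1631 ± 576 (SD, n = 111) CPM per kilobase. Rplp0 (chr5:115559467-115563727, plus strand), the scaffold of the P stalk, which recruits the GTPases of translation to the large subunit, followed with 1125 ± 431. These 2 genes took 19.6% of the CPM of all 89. Rplp1 at 443 ± 156 and Rpl10 at 430 ± 207 CPM per kilobase were also among the 6 highest and do not differ beyond their spread.

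At the low end, the pseudogenes Rpl6l and Rpl32l stood at 0.379 ± 0.562 and 0.404 ± 0.695 CPM per kilobase and had no count in 62 and 71 embryos. Rpl3l, known from striated muscle, stood at 5.54 ± 3.31. Rpl5 stood at 10.7 ± 4.36, Rpl12 at 12.1 ± 6.30 and Rpl22l1 at 24.4 ± 15.5 CPM per kilobase. The level of Rpl5 is apart from that of its partner: Rpl5 and Rpl11 carry the 5S rRNA into the large subunit together and bind Mdm2 when free, yet Rpl11 stood at 139.9 ± 59.5 CPM per kilobase. These levels sum all transcripts of a gene: 57.1% of the counts of Rpl5 lay on coding transcripts and 42.9% on retained introns. For Rpl11, 69.0% lay on coding transcripts. Small subunit genes had a median of 154 and large subunit genes of 103 CPM per kilobase.

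**Figure D2:**
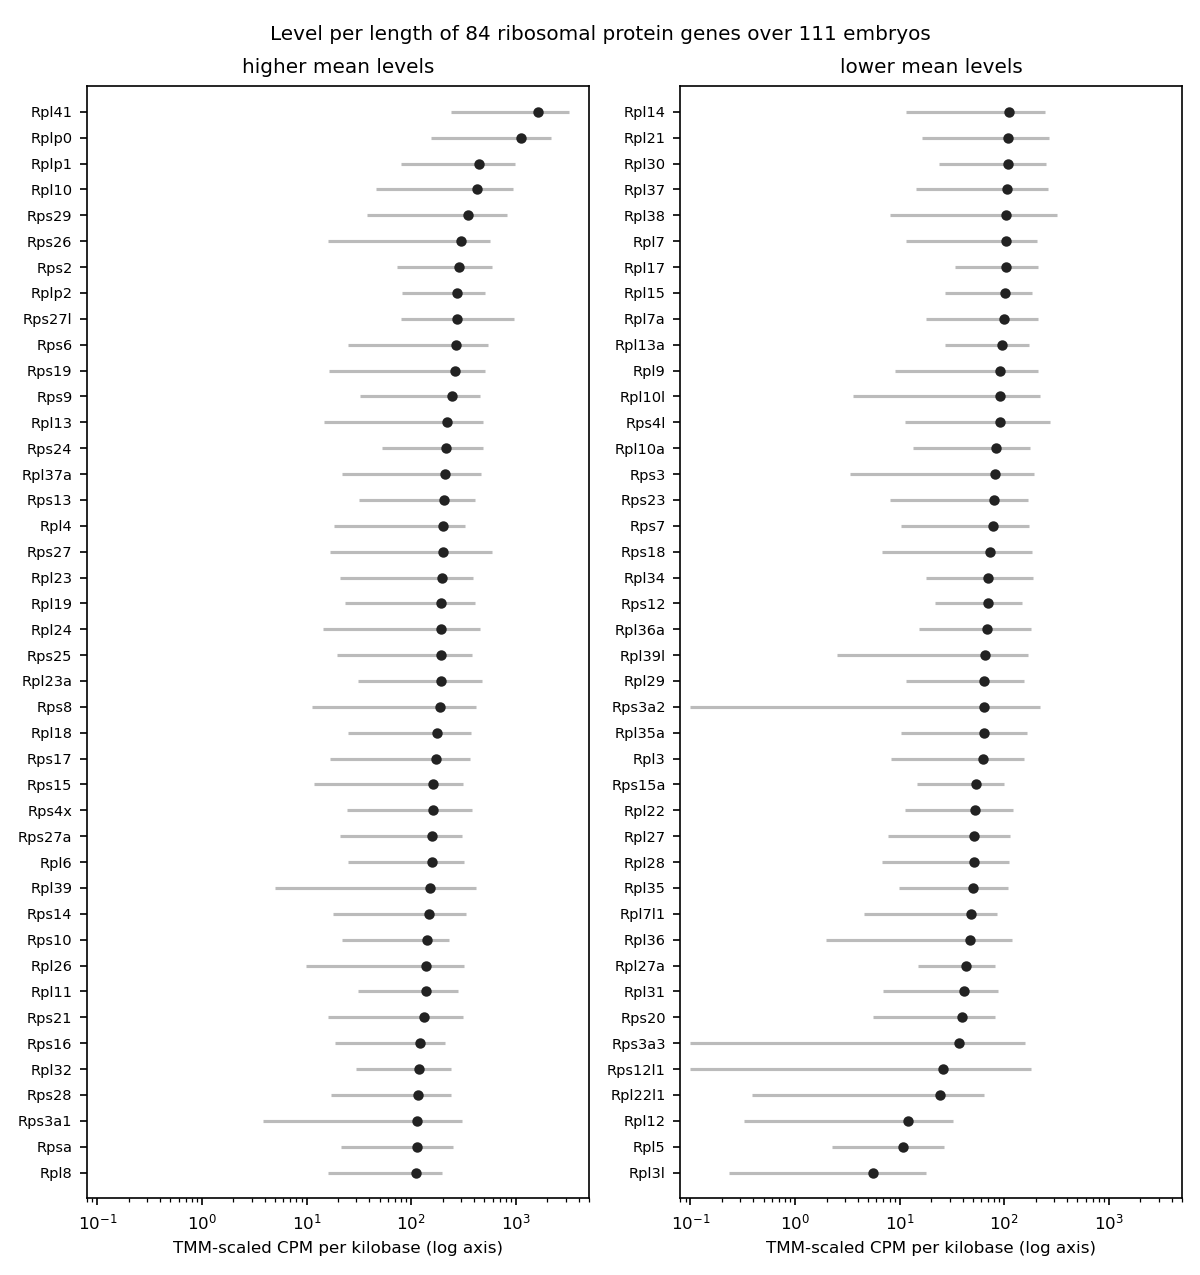
Mean level per length (points, TMM-scaled CPM per kilobase, log axis) of 84 of the 87 genes past the filter, in order, with grey bars from the lowest to the highest of 111 embryos and bars drawn to 0.1 where the lowest was below it. Rpl41 and Rplp0 stand above the rest, and Rpl12, Rpl5 and Rpl3l below.

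For most genes nearly all counts lay on coding transcripts (median 93.2%), but for 14 genes under 50% did. Rpl12 had 4.41% on coding transcripts, 43.0% on transcripts marked for nonsense-mediated decay and 52.6% on retained introns. Rpl22 had 14.7% on coding transcripts and 77.8% on 1 non-coding processed transcript. Its paralog Rpl22l1 had 26.2% on coding transcripts, 52.0% on transcripts marked for nonsense-mediated decay and 21.5% on retained introns. Rpsa, the laminin receptor precursor, had 73.2% on transcripts marked for nonsense-mediated decay, a class through which several ribosomal proteins are known to limit their own mRNA. How counts split among overlapping transcripts of a gene is an estimate of the counting program, not a direct observation. Copies elsewhere in the genome also draw reads: 831 annotated pseudogenes aligned to 62 of the 89 genes at 90% identity or more over at least 50% of the coding transcript. They held 517399 counts, 7.62% of the 6787677 on the 89 genes. Their counts were 1.29 times those of the gene itself for Rpl36, 0.770 times for Rpl30, 0.766 times for Rpl31, 0.715 times for Rps2 and 0.542 times for Rps7, so the levels of these 5 genes are uncertain.

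The 3 Rps3a genes show how copies can matter. Rps3a1, the coding gene, ranged from 3.73 to 300.4 CPM (median 105.2), the pseudogene Rps3a2 from 0 to 174 CPM (median 47.9) and the pseudogene Rps3a3 from 0 to 126 CPM (median 29.6). Rps3a2 had no count in 8 embryos and Rps3a3 in 11. Within groups, after the mean of the autosomal ribosomal protein genes was regressed out, Rps3a1 ran against both (Pearson's r -0.69 and -0.71 over 111 embryos, and -0.35 and -0.39 without that regression), while Rps3a2 and Rps3a3 ran together (r 0.97). The log2 spread between embryos of a group was 1.14 for Rps3a1, 2.48 for Rps3a2 and 2.35 for Rps3a3, but 0.72 for their sum. Whether embryos differ in which copy they express or in how near-identical reads were divided was not tested.

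Of 7 pairs of a core gene and its paralog, 6 had the core gene higher, with all transcripts of each gene summed. Per kilobase, Rpl10 stood at 430 and Rpl10l, known from the testis, at 91.3 ± 46.6 (SD, n = 111), and Rpl10l was lower in all 111 embryos. Rpl3 at 62.3 ± 26.8 was above Rpl3l in all 111 embryos as well. Rpl39l, another testis paralog, made up a median of 30.3% of the pair with Rpl39 (6.44% to 63.9%) and exceeded it in 5 embryos. Rpl7l1, a nucleolar paralog, made up 30.7% of the pair with Rpl7 and exceeded it in 2 embryos, and Rpl22l1 29.8% of the pair with Rpl22, exceeding it in 8. Only 26.2% of the counts of Rpl22l1 and 14.7% of those of Rpl22 lay on coding transcripts. Rps4l, listed as a transcribed processed pseudogene, made up 35.2% of the pair with Rps4x and exceeded it in 16 embryos. The exception was Rps27l (chr9:66946086-66949516, plus strand), a p53 target in other cells, at 274 ± 122 CPM per kilobase against 202 ± 112 for Rps27. Rps27l was the higher in 81 of 111 embryos, from 7 of 16 in the knockdown embryos of experiment 2 to 23 of 25 in the control embryos of experiment 3.

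Between embryos of the same group the genes moved together. The median Pearson's r over 3741 pairs of the 87 genes (log2 CPM, group means removed, 111 embryos) was 0.712, with quartiles of 0.498 and 0.805 and 95.7% of pairs positive. Among 3863 other genes at or above the lower quartile of their levels the median r was 0.058. Rpl24 (median r with the others 0.851), Rps25 (0.841) and Rps29 (0.837) lay at the core, and Rpl24 and Rps25 had r 0.95 with each other. The pairs share libraries and scaling, so these values are a description. The spread was also wider than for other genes: the median within-group SD of log2 CPM was 0.76 for the 87 genes and 0.62 for the 3863 others.

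A few genes stood outside this pattern. Rpl5 ran against the rest, with a median r of -0.357. Rps12 had -0.064, Rpl3 0.136, the pseudogenes Rps12l1, Rps3a3 and Rps3a2 0.254, 0.258 and 0.299, Rpl17 0.270 and Rps27l 0.292. Rps12 and Rpl17 also had the smallest spread between embryos, with SDs of 0.43 log2 units each. Coding transcripts held 57.1% of the counts of Rpl5, 62.3% for Rps12 and 57.8% for Rpl3, but 100% for Rpl17 and 96.8% for Rps27l. The part of transcript classes in the r values was not tested. Genes whose start had a C with 4 pyrimidines had a median r of 0.779 (13 genes, 0.663 to 0.833) and those without it 0.741 (50 genes, -0.357 to 0.851), so the ranges of genes with and without a TOP-like start overlapped.

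Other genes of the translation machinery moved with the 89. Within the 6 groups, the share of counts on the 89 genes and the log2 summed CPM of 6 ribosome components that the name rule leaves out (such as Fau and Rack1) had r from 0.908 to 0.971. For 16 other TOP mRNA genes, among them Eef2, Pabpc1 and Npm1, r ran from 0.767 to 0.924, and for 9 chaperones of ribosomal proteins from 0.582 to 0.993. For the genes of the 2-cell burst r was negative in every group, from -0.796 to -0.302, and for oocyte-deposited genes it ran from -0.692 to 0.198. With the log2 library total r ran from -0.340 to 0.918, and the part of depth in these values was not tested. The highest of these, 0.918, was that of the 7 control embryos of experiment 2. There control embryo 2 had both the smallest library (2155068 counts) and the lowest share (0.361%). All r ranges of this paragraph include that embryo, and none is given without it.

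The 4 X-linked genes, Rpl10, Rpl36a, Rpl39 and Rps4x, had a further pattern of their own. Their part of the CPM of all 89 genes ran from 2.49% to 9.36% (median 4.86%) and was set against 4 Y-linked genes (Eif2s3y, Ddx3y, Usp9y and Zfy2, chosen after their values were seen). The embryos were divided at 10 CPM of the Y-linked sum. In 53 embryos the Y-linked genes summed to 8.15 CPM or less, and in the other 58 to 16.7 CPM or more. The X-linked part had a median of 7.26% (4.06% to 9.36%) in the 53 embryos and of 3.94% (2.49% to 5.91%) in the 58. Only 3 of the 53, but 57 of the 58, lay under 5.5%.

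Each of the 4 genes showed it. Rpl10 had a median of 486 CPM (68.4 to 759.6) in the 53 embryos and of 256 CPM (36.9 to 402) in the 58. Rps4x had 226 CPM (30.2 to 372) and 115 CPM (23.6 to 183). Rpl39 had 121 CPM (16.3 to 257) and 65.5 CPM (3.06 to 139), and Rpl36a 49.8 CPM (14.7 to 97.8) and 24.0 CPM (8.31 to 50.3). All 4 thus overlapped between the 53 and the 58 embryos, with medians near 2-fold apart, while the summed autosomal genes had medians of 10969 and 11315 CPM.

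In a fit of all genes with group means and the mean log2 level of the 4 Y-linked genes as a term, 1.96% of all genes were called at an adjusted p under 0.05 (edgeR's quasi-likelihood test). Of the 87 genes, 4 were called, the 4 on the X. Their log2 level fell by 0.18 ± 0.02 (Rps4x, SE), 0.20 ± 0.03 (Rpl36a), 0.17 ± 0.03 (Rpl10) and 0.17 ± 0.03 (Rpl39) per log2 unit of the Y-linked level. Of 690 X-linked genes tested, 291 (42.2%) were called lower with the Y-linked level, and of 16402 autosomal genes 20 (0.122%). None of the 83 autosomal ribosomal protein genes was called in this edgeR fit, the smallest p being that of Rplp0 (0.00902 unadjusted). The labels give no sex. The 53 embryos with low Y-linked counts were 12 of 24 control and 6 of 16 knockdown embryos in experiment 1, 2 of 7 and 9 of 16 in experiment 2, and 15 of 25 and 9 of 23 in experiment 3, so the arms were unevenly split, in opposite ways in experiments 2 and 3.

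**Figure D3:**
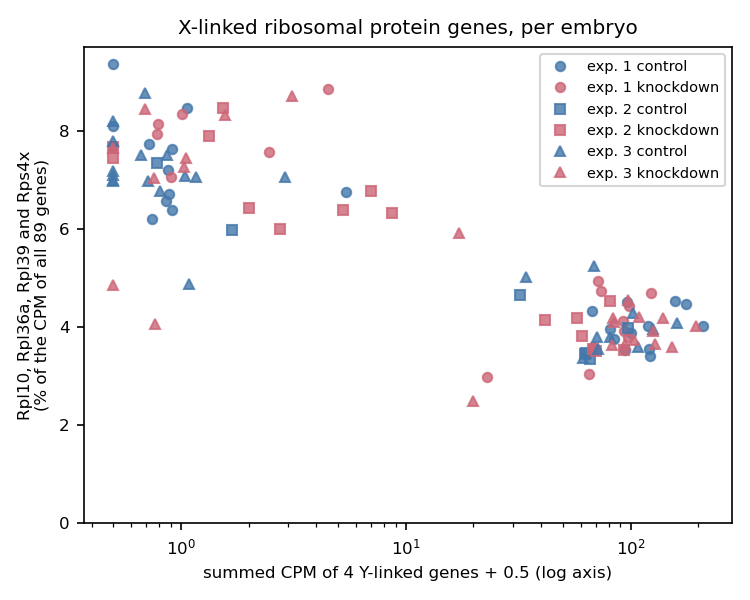
Summed CPM of 4 Y-linked genes plus 0.5 (x axis, log scale) against the percent of the CPM of all 89 ribosomal protein genes that Rpl10, Rpl36a, Rpl39 and Rps4x hold (y axis), for 111 embryos by experiment (symbol) and arm (colour). The 53 embryos on the left have a median of 7.26% and the 58 on the right of 3.94%.

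Knockdown of Nr5a2 was compared with control to see whether ribosomal protein mRNA depends on it. No ribosomal protein gene was called between the arms, where 0.78% of all genes were (134 of 17186, edgeR's quasi-likelihood test, adjusted p under 0.05). At an unadjusted p under 0.05 stood 6 of the 87 (6.90%), against 8.41% of all genes. DESeq2 called 218 of all genes and 0 of the 87, of which 7 had an unadjusted p under 0.05 and the smallest adjusted p was 0.0539. With limma-voom 182 of all genes and 0 of the 87 were called, and 6 had an unadjusted p under 0.05. The median log2 fold change was 0.07 over the 87 and 0.01 over all genes, with 59 of 87 above 0. It was 0.00 with limma-voom, where all genes had -0.04, and -0.20 with the authors' batch-adjusted values, where all genes had -0.24. In these 2 alternatives the median of the 87 thus moved with that of all genes. In others it moved more than that of all genes. Without experiment 3 it was 0.15 and without experiment 1 it was 0.02, where all genes had 0.01 in both. Without control embryo 2 of experiment 2 the median was 0.042 over the 87, where all genes had 0.035. The median of the 87 lay above that of all genes in each of the 17 alternatives, which reuse the same embryos. The 87 genes moved together between embryos (median r 0.712), so they do not count as 87 separate observations. For 86 of the 87 the 95% confidence interval lay within a 2-fold change either way, and for 82 within 1.5-fold. Only the pseudogene Rps12l1 reached further, with an interval from -0.19 to 1.54 on the log2 scale.

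The smallest p belonged to Rpl17, which lies at the mouth of the peptide tunnel. Its lowest, median and highest values were 35.6, 101.5 and 178.5 CPM in control and 51.0, 106.9 and 224 CPM in knockdown embryos, so the arms overlapped over most of their range. The log2 fold change was 0.25 ± 0.08 (SE), with an adjusted p of 0.20 by edgeR. With the authors' batch-adjusted values it was -0.02, against the all-gene median of -0.24 there. Rps27l ran from 40.1 through 134.8 to 205 CPM in control and from 54.0 through 139.5 to 483 CPM in knockdown embryos. Its log2 fold change was 0.29 ± 0.10 (SE), with an adjusted p of 0.255 by edgeR.

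**Figure D4:**
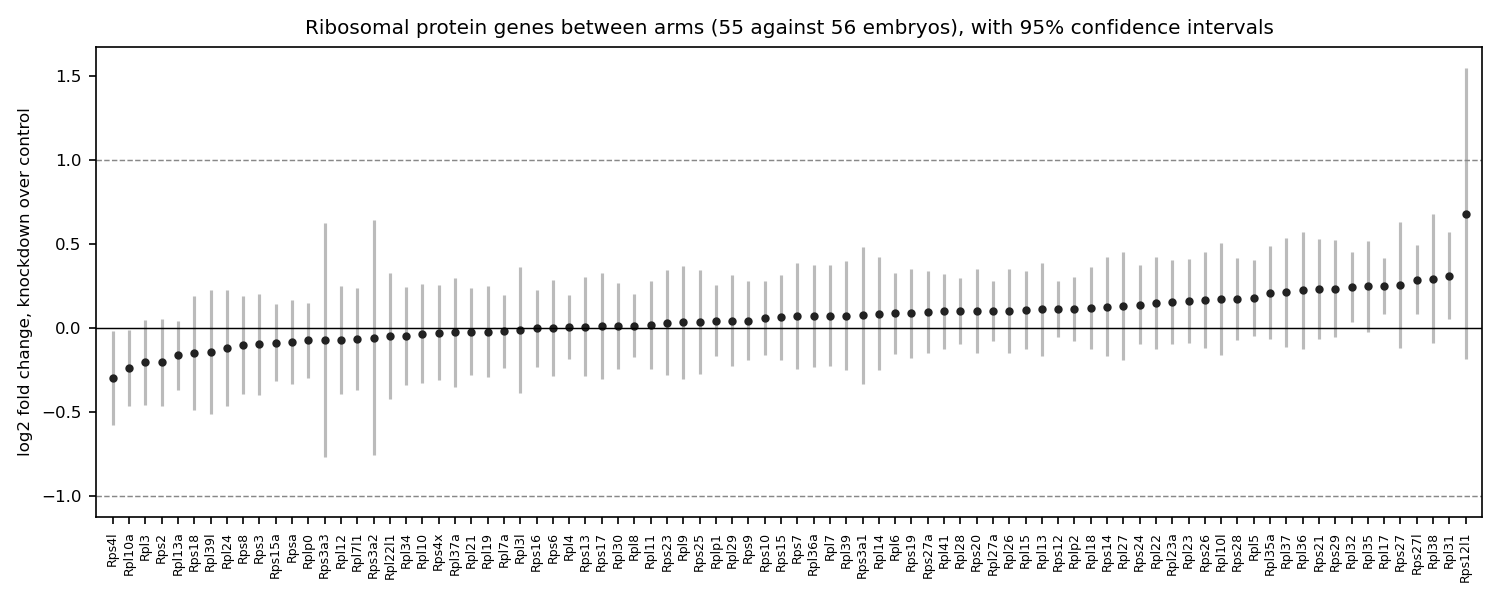
Log2 fold change of knockdown over control (points, y axis) with 95% confidence intervals for 84 of the 87 genes past the filter, in order of size, from the edgeR fit over 56 control and 55 knockdown embryos. Dashed lines mark a 2-fold change, and all intervals but that of Rps12l1 lie between them.

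No structural group of the ribosome held a called gene between the arms, where 0.78% of all genes were called. In the P stalk the log2 fold changes were -0.07 ± 0.11 (SE) for Rplp0, 0.04 ± 0.11 for Rplp1 and 0.11 ± 0.10 for Rplp2. For the 5S partners they were 0.18 ± 0.11 for Rpl5 and 0.02 ± 0.13 for Rpl11. None of 9 genes at the peptide tunnel, 2 at the mRNA entry (Rps2, -0.20 ± 0.13, had the smallest p), 4 at the mRNA exit (Rps21, 0.23 ± 0.15), 9 homologs of Diamond-Blackfan anaemia genes or 7 paralogs was called. The median was 0.05 for small and 0.07 for large subunit genes. Outside the 89, none of the 5 tested further ribosome components, 16 TOP genes (Nap1l1, 0.19 ± 0.11), 15 regulators of TOP mRNAs or ribosomal protein genes (the kinase gene Rps6kb2, -0.61 ± 0.26) or 9 chaperones (Heatr3, -0.22 ± 0.15) was called. Across these lists edgeR gave 0 calls. At the all-gene share of 0.78%, lists this short would hold few or no calls, so 0 calls do not set them apart. Of the 45 genes outside the 89, 1 had an unadjusted p under 0.05 (edgeR), against 8.41% of all genes. The mitochondrial genome did move: 5 of 13 genes rose in the knockdown arm, among them mt-Nd2 (0.42 ± 0.08) and mt-Nd3 (0.42 ± 0.09). Whether this reflects RNA quality was not tested, nor was the part of the mitochondrial genome in these values.

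Counted by transcript, 0.247% of all transcripts were called and 0 of 352 tested transcripts of these genes, with 10 (2.84%) at an unadjusted p under 0.05 against 6.06% of all (edgeR). The smallest adjusted p was 0.246, for a transcript of Rps15a with a log2 fold change of -0.60 ± 0.19 (SE). In the authors' deposited table none of the 319 transcripts of these genes with an adjusted p was under 0.05, the smallest being 0.115.

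Within each experiment the count was 0 as well. In experiment 1, 0.663% of all genes and 0 of the 87 were called by edgeR, with 5 at an unadjusted p under 0.05. The smallest p was that of Rpl32 (0.48 ± 0.17, SE), whose median was 53.7 CPM in control and 68.2 CPM in knockdown embryos, with overlapping ranges of 16.2 to 93.3 and 33.2 to 130.9 CPM. In experiment 2, 0% of all genes and 0 of the 87 were called, with 0 of the 87 at an unadjusted p under 0.05. Nr5a2 itself was not called there (-1.13 ± 0.28, SE, adjusted p 0.431, edgeR), so 0 calls in experiment 2 cannot show that the 87 were unchanged. Of the 87, the smallest p was that of Rps3a1 (0.92 ± 0.48, SE), or 0.86 ± 0.51 without control embryo 2. Its copies had values of the other sign, -1.001 ± 0.82 for Rps3a2 and -1.07 ± 0.82 for Rps3a3. There the X-linked Rpl36a, Rps4x, Rpl10 and Rpl39 had log2 fold changes of 0.59 ± 0.36, 0.52 ± 0.33, 0.48 ± 0.35 and 0.37 ± 0.39, and of 0.42 ± 0.29, 0.41 ± 0.27, 0.35 ± 0.29 and 0.27 ± 0.34 with the Y-linked level as a term. Without control embryo 2 they were 0.46 ± 0.37, 0.35 ± 0.34, 0.31 ± 0.35 and 0.17 ± 0.38. In experiment 3 the same genes had -0.26 ± 0.22, -0.22 ± 0.21, -0.27 ± 0.22 and -0.15 ± 0.24, and -0.04 ± 0.18, 0.01 ± 0.17, -0.09 ± 0.19 and 0.07 ± 0.22 with that term, so that Rps4x and Rpl39 turned sign.

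In experiment 3, 0.0873% of all genes and 0 of the 87 were called by edgeR, with 2 at an unadjusted p under 0.05, Rpl17 (0.33 ± 0.13, SE) and Rps2 (-0.49 ± 0.19). The medians over the 87 were 0.13, 0.17 and -0.03 in experiments 1 to 3. Without control embryo 2 of experiment 2, the value in experiment 2 was 0.03. The test of a response that differs between experiments called 0.0465% of all genes and 0 of the 87, with none at an unadjusted p under 0.05 and Rps2 nearest (0.0656, edgeR). Without control embryo 2 of experiment 2, Rps2 stood at an unadjusted p of 0.0497 and an adjusted p of 1.00.

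More of these genes differed between experiments than between arms, though in each of the 6 contrasts the share called lay below that of all genes. Between control embryos of experiments 2 and 1, 1 of 87 (against 3.92% of all genes) was called by edgeR, and between experiments 3 and 1 again 1 (against 7.45%). Between experiments 3 and 2 none was, against 1.39%, while 7 had an unadjusted p under 0.05 (8.05%, against 10.6% of all genes). Without control embryo 2 of experiment 2 that number was 3. DESeq2 called none in that contrast either. Between knockdown embryos of experiments 2 and 1, 6 of 87 were called, against 10.8% of all genes. Between experiments 3 and 1 none was, against 1.58%, with 0 at an unadjusted p under 0.05. Between experiments 3 and 2, 5 were called, against 10.5%, and 10 by DESeq2, which called 2505 of all genes. The contrasts within an arm share embryos, and the experiments differ in ways the labels do not give.

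Rpl22l1 (chr3:28805436-28807424, plus strand), a paralog of Rpl22 that can bind RNA outside the ribosome, was lower in experiment 2 than in experiment 1 in both arms. Its lowest, median and highest values in control embryos were 8.38, 23.6 and 42.6 CPM in experiment 1, 0.257, 8.33 and 12.0 CPM in experiment 2 and 2.08, 14.0 and 38.9 CPM in experiment 3. In knockdown embryos the medians were 19.7, 7.95 and 15.5 CPM. The control embryos of experiments 1 and 2 overlapped only between 8.38 and 12.0 CPM. These values sum all transcripts of Rpl22l1, and 26.2% of its counts lay on coding ones. The log2 difference of experiment 2 from 1 was -1.81 ± 0.47 (SE) in control embryos (adjusted p 0.00999, edgeR) and -1.21 ± 0.35 in knockdown embryos (adjusted p 0.0123). Without control embryo 2 of experiment 2 the first was -1.65 ± 0.49 (adjusted p 0.0345). Rpl22 itself differed by -0.53 ± 0.32 in control embryos (adjusted p 0.458).

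Rps27l was lowest in experiment 2 among knockdown embryos. In knockdown embryos its median was 149.0 CPM in experiment 1 (54.0 to 304), 101.0 CPM in experiment 2 (69.0 to 152) and 161 CPM in experiment 3 (58.0 to 483). All ranges overlapped, and the upper ends set experiment 2 apart. The log2 difference of experiment 3 from 2 was 0.79 ± 0.18 (SE, adjusted p 8.40e-04, edgeR), and that of experiment 2 from 1 was -0.61 ± 0.19 (adjusted p 0.0242). In control embryos its medians were 90.2, 96.8 and 147.4 CPM, and the difference of experiment 3 from 2 was 0.73 ± 0.24 (adjusted p 0.139), or 0.62 ± 0.25 (adjusted p 0.341) without control embryo 2 of experiment 2. There experiment 2 differed from 1 by -0.31 ± 0.24 (adjusted p 0.602) and experiment 3 from 1 by 0.42 ± 0.15 (adjusted p 0.0781, edgeR). The edgeR test of any difference among the experiments in control embryos called Rps27l, with an adjusted p of 0.0292.

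Rplp0 went the other way. Its median in knockdown embryos was 994 CPM in experiment 1 (547 to 1802), 1952 CPM in experiment 2 (937 to 2618) and 1264 CPM in experiment 3 (193 to 2164). The difference of experiment 2 from 1 was 0.79 ± 0.20 (SE, adjusted p 0.00439, edgeR) and that of experiment 3 from 2 was -0.58 ± 0.18 (adjusted p 0.0260). In control embryos they were 0.30 ± 0.24 (adjusted p 0.639) and -0.15 ± 0.24 (adjusted p 0.899). Its P stalk partners Rplp1 (medians 227, 245 and 221 CPM) and Rplp2 (191, 184 and 197 CPM) were not called. Rps4l rose as well in experiment 2 over 1 (62.6 to 104.4 CPM in the median, 0.90 ± 0.26, adjusted p 0.0121).

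Of the small subunit genes, Rps12, a protein of the subunit's beak, fell in experiment 2 against 1 in knockdown embryos, from a median of 54.3 CPM (37.0 to 84.4) to 36.8 CPM (25.5 to 53.8), with a log2 difference of -0.53 ± 0.15 (SE, adjusted p 0.0141, edgeR). With the counts of its named pseudogenes added the difference was -0.21 and not called (adjusted p 0.465). The pseudogene Rps12l1 differed by -2.41 ± 0.83 in the same contrast (adjusted p 0.0416) and had no count in 11 of 16 and 6 of 7 embryos of experiment 2, against 0 of 16 and 3 of 24 in experiment 1 (knockdown and control). With the Y-linked level as a term its adjusted p was 0.0569. Rps2, at the mRNA entry, was higher in control embryos of experiment 3 than of experiment 1, with medians of 328 CPM (119.8 to 564) and 236 CPM (72.8 to 489), with a log2 difference of 0.60 ± 0.19 (adjusted p 0.0355). Rps2 is among the genes whose pseudogenes hold many counts.

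Rpl17 and Rpl8 differed between knockdown embryos of experiments 3 and 2. Rpl17 rose from a median of 84.0 CPM (51.0 to 169.7) to 136.0 CPM (79.2 to 224), with a log2 difference of 0.55 ± 0.14 (SE, adjusted p 0.00544, edgeR). Rpl8, a core protein near the peptidyl transferase centre, fell from 120.6 CPM (38.9 to 169) to 86.3 CPM (13.6 to 127), with a log2 difference of -0.50 ± 0.16 (adjusted p 0.0218). In both the ranges overlapped. In control embryos the same contrast gave 0.49 ± 0.19 for Rpl17 (adjusted p 0.280) and -0.07 ± 0.21 for Rpl8 (adjusted p 0.957). The mitochondrial genome moved with these contrasts: 10 of 13 genes fell in experiment 2 against 1 in control and 9 of 13 in knockdown embryos, 5 of 13 fell in experiment 3 against 1 in control embryos, where Rps2 was called, and 12 of 13 rose in experiment 3 against 2 in knockdown embryos. Its part in the ribosomal protein values was not tested.

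**Figure D5:**
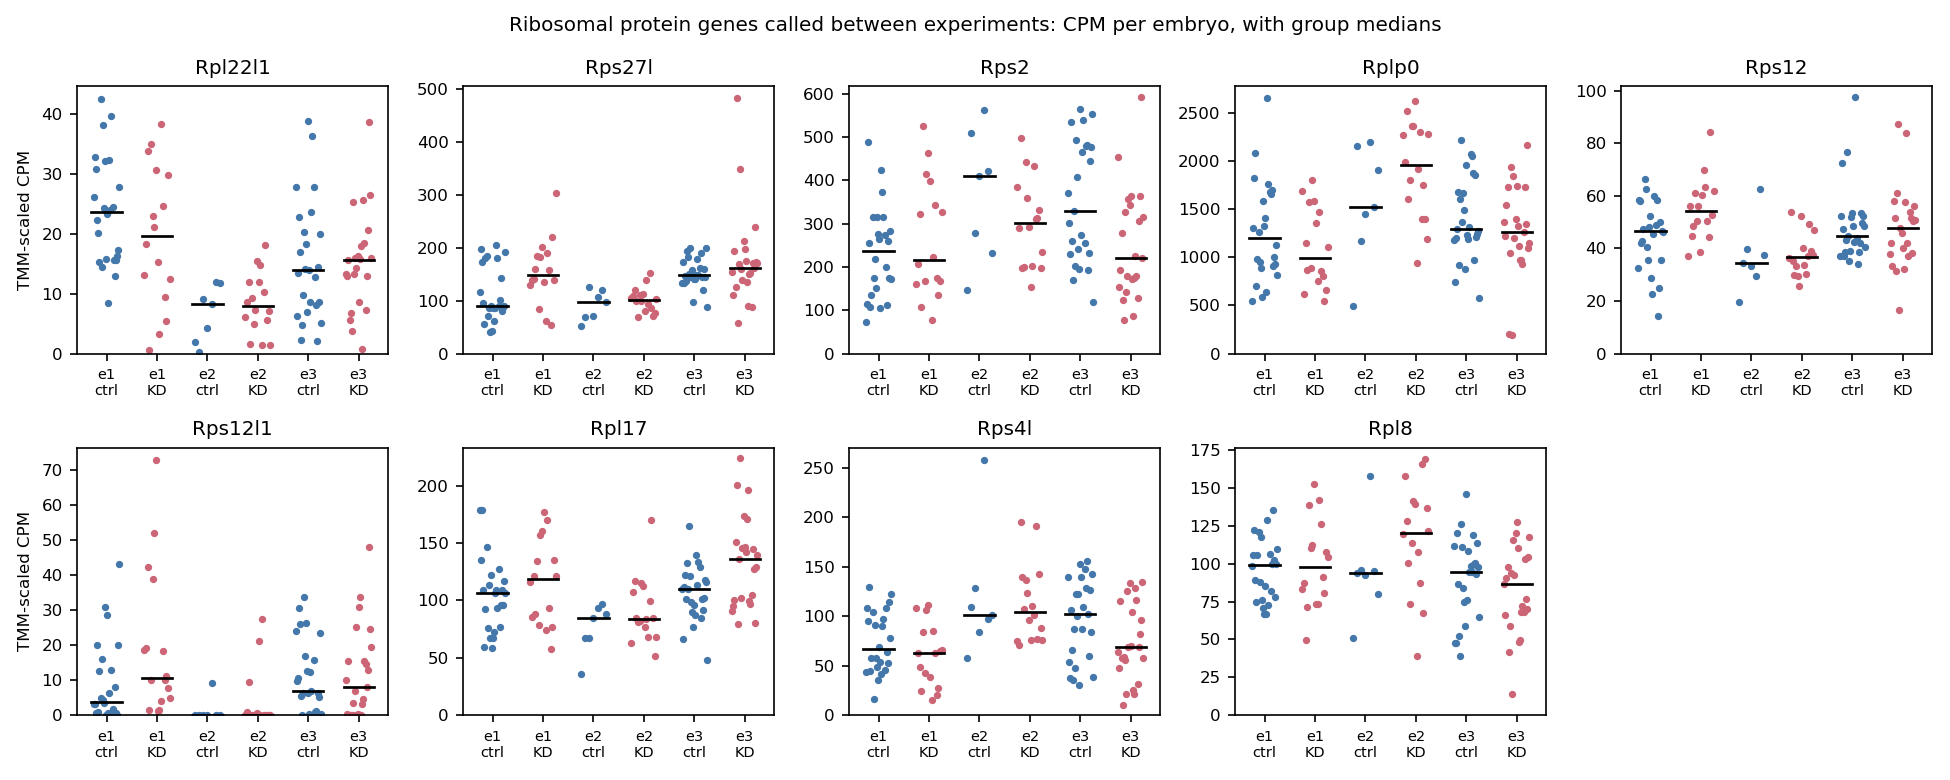
TMM-scaled CPM per embryo (points, y axis, from 0) of 9 genes called in contrasts between experiments, in the 6 groups (x axis, e1 to e3 for experiments 1 to 3, blue control, red knockdown), with bars at the group medians. Rpl22l1 has medians of 23.6 and 8.33 CPM in control embryos of experiments 1 and 2, and Rplp0 of 994 and 1952 CPM in knockdown embryos.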

How the data were processed

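Values started from the authors' estimated counts for each transcript, which the deposited table gives without scaling. Tools named in the submitters' processing notes were kallisto 0.46.1, DESeq2 1.32.0, R 3.5.1, Trim Galore 0.6.2 and bcl2fastq, while the kallisto index was not given there. A table of values adjusted for batch by the authors, used as a score with no stated method, entered only alternatives, by limma on log2(value + 1). For each transcript the authors' deposited results table lists a log2 fold change and an adjusted p-value.

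Of 119353 transcripts, 117282 took their gene from the authors' table and 379 from GENCODE M21. The 1692 without a gene (median 0.566% of counts) and 2 reporter rows were left out. Sums per gene were rounded. Genes were tested with edgeR 4.0.16 in R 4.3.3 (filterByExpr by the 6 groups, TMM, quasi-likelihood F-test with experiment as a factor or with group means, Benjamini-Hochberg adjustment over all genes tested at 0.05), and the script was tested on simulated data. CPM use TMM-scaled totals. DESeq2 1.42.0 and limma-voom (limma 3.58.1) were alternatives. Intervals cover the spread between embryos. SmartSeq2 has no molecular identifiers and no strand here, so overlapping genes can share reads. Pseudogenes were aligned with BLAST+ 2.17.0.

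Named genes were the 6 highest and 6 lowest per kilobase, the paralog pairs, the P stalk and 5S partners, up to 4 called genes per direction and contrast or else the 2 with the smallest p, and 1 or 2 of each other list. The genes and lists were chosen with earlier results of these data known. Some genes that this rule names are not reported here.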

Additional observations from a re-analysis of the deposited data

Results flagged for a closer look

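In the 7 control embryos of experiment 2, 1 library lay far from the others: embryo 2 had 0.361% of its counts on the 89 genes, and the next lowest had 1.13%. The same embryo was far below the other 6 for Rpl7 (26.4 CPM) and Rplp1 (40.2 CPM). It had the smallest library of its group, with 2155068 counts. For Rps4l, embryo 6 of that group was far above the others, at 258 CPM. These 4 values were found in 21 checks of a gap to the nearest embryo, of which chance flags about 1 in 20, and the genes are correlated.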

How the results depend on the processing

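The arms gave 0 of the 87 genes in all 17 alternatives. Between experiments, 3 genes were called lower in knockdown embryos of experiment 3 against 2, but 5 with library totals in place of TMM, 5 with named pseudogenes added and 7 with DESeq2. The other counts of the 87 called higher or lower stayed within 1.5-fold of the reported ones under the alternatives run for them. The authors' batch-adjusted values, with arm as the only term, turned Rpl17 between arms from 0.25 to -0.0196. Scaled to a common total and with experiment as a term they gave a median of -0.00451 over the 87. Embryos share replicate numbers across arms, but the numbers did not pair them (median correlation 0.043 over 46 pairs, 15 of them over 0.1), and a fit on the 46 pairs alone, with the number within the experiment as a block, called 0 of the 87 higher and 0 lower, with 15 of all genes called. The same embryos without the block gave 55, and all embryos 134. All genes called between arms ranged from 3 (counts summed by experiment and arm, 3 sums per arm) and 19 (without experiment 1) to 956 (no filter on low counts). The median of the 87 between control embryos of experiments 3 and 2 turned from 0.09 to -0.09, and that of experiments 2 and 1 went from 0.00156 to 0.18, without control embryo 2 of experiment 2. With the longest coding transcript as length, the median level was 97.4 in place of 114 CPM per kilobase. The alternatives without that embryo, with the Y-linked level, with aligned pseudogenes, with scaled batch-adjusted values, with the pairs but no block, and those by DESeq2, by filter and by named pseudogenes for experiments compared in knockdown embryos were chosen after seeing the data. Low depth limits Rpl6l and Rpl32l, which were not tested.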
